A study of Mus musculus with 6 samples.

Results

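A set of 10 genes that draw monocytes into tissue or keep macrophages alive were followed in 6 tumor libraries: the CC chemokine genes Ccl2, Ccl7, Ccl8, Ccl12, Ccl3 and Ccl4, the chemokine gene Cx3cl1, the growth factor genes Csf1 and Il34, and the receptor gene Ccr2. They were taken by symbol, and all 10 were found among the 54146 genes of the deposited tables. The tumors came from 4T1, a mouse mammary carcinoma line, whose cells either carried a Mki67 knockout (3 libraries, Ki-67-KO) or were wild-type (3 libraries). Mki67 encodes Ki-67, a protein used to mark dividing cells. Nude mice received either kind of cell orthotopically, in the mammary fat pad, and tumors were collected 3 weeks later. Nude mice lack a thymus and so most T cells, while their monocytes, macrophages, neutrophils and natural killer cells remain, and this holds for both groups. The age of the mice and the number of knockout clones are not given in the labels, so clonal differences and the knockout cannot be told apart. The labels do not say that each library is a separate mouse, so p-values measure the spread between these libraries.

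Monocytes leave the bone marrow and enter tissue along gradients of CC chemokines that bind the receptor Ccr2. Ccl2, Ccl7 and Ccl12 are the main Ccr2 ligands of the mouse, and Ccl8 belongs to the same monocyte chemoattractant group but in the mouse acts through Ccr8. Ccl3 and Ccl4 are inflammatory chemokines of myeloid cells and lymphocytes, and Ccl3 binds Ccr1. Cx3cl1 is made as a membrane-bound chemokine and is seen by Cx3cr1 on monocytes and macrophages. Csf1 and Il34 are the alternative ligands of Csf1r, the receptor on which most tissue macrophages depend for survival. In mouse mammary tumors this system is known for bringing in macrophages, and tumor cells, stroma and the macrophages themselves can all make the ligands.

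Gene counts ranged from 22081970 to 30772729 read pairs in Ki-67-KO libraries and from 37065778 to 38399826 in wild-type libraries. Levels are given in CPM, counts scaled to the effective size of each library. Mki67 averaged 118 ± 19.9 CPM in Ki-67-KO tumors and 360 ± 34.9 CPM in wild-type tumors (SD, n = 3 each), with no overlap, in the direction of the labels. The 5 mammary carcinoma markers set for the check were counted in all libraries, and 4 of them rose and none fell. Their summed level was 5241 to 5619 CPM in Ki-67-KO libraries and 2808 to 2926 CPM in wild-type libraries, and their median log2 fold change was 2.02, with Krt8 the one that did not pass (0.18). Ki-67-KO replicates 2 and 3 had 54.6% and 52.7% unmapped pairs, and the other 4 libraries 30.8% to 33.9%, so each member's test was also run without that pair of libraries. Of 14 macrophage markers, 13 fell and none rose in Ki-67-KO tumors. Their summed level was 941 to 1108 CPM in Ki-67-KO libraries and 5451 to 6322 CPM in wild-type libraries, with no marker at 0 in either group. Lyz2, which neutrophils make as well, held most of the wild-type sum, at 3937, 3193 and 3353 CPM. It was at 331, 300 and 321 CPM in Ki-67-KO tumors, a log2 fold change of -3.46. The median log2 fold change of the 14 macrophage markers was -1.64. The part of these marker lists in the results below was not tested, and in bulk tumor RNA fewer cells of a type and less RNA per cell cannot be told apart.

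All 10 members passed the filter on low counts, and 9 of them passed the test between the groups, 3 higher and 6 lower in Ki-67-KO tumors. The test was edgeR's quasi-likelihood test with Benjamini-Hochberg adjustment over all 19900 genes tested, and calls were made at an adjusted p under 0.05. Of all genes tested, 36% passed, 17.6% higher and 18.4% lower. For the marker lists named here, the share of tested markers called was 44.4% for monocytes, 44.4% for neutrophils and 12.5% for endothelium. It was 80% for mammary carcinoma, 92.9% for macrophages, and 100% for fibroblasts, keratinocytes and natural killer cells. The members' median log2 fold change was -1.14, against 0.05 over all genes tested. The same 9 members had no overlap between the groups' libraries, 3 of them higher and 6 lower, as had 50.5% of all genes tested, 24.5% higher and 26% lower. Fold changes are given as Ki-67-KO over wild-type, with the standard error (SE) from the fit.

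**Figure D1:**
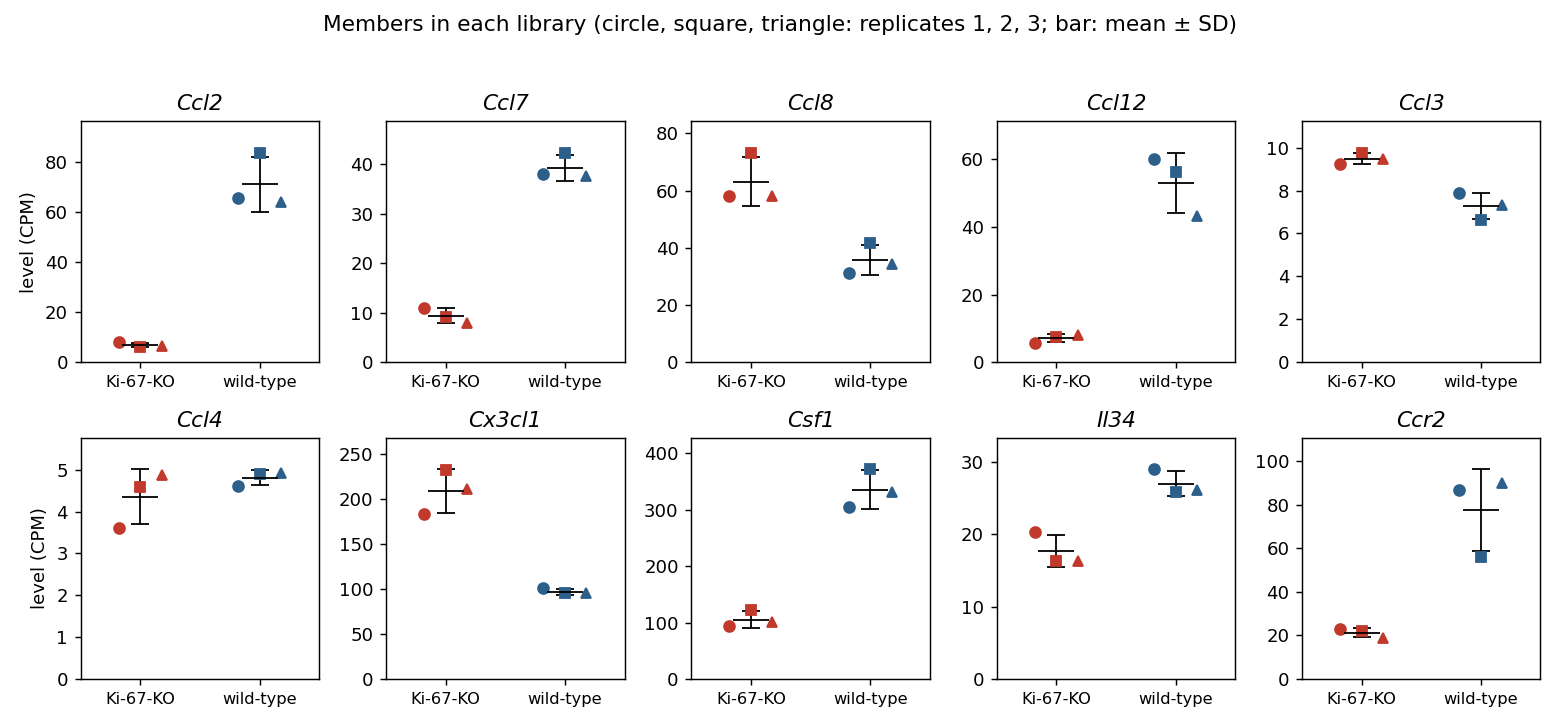
Level of each of the 10 members in CPM (y axis, from 0) in the 3 Ki-67-KO and 3 wild-type libraries, with the group mean and SD as bars. The groups do not overlap for any member except Ccl4, and Ccl8, Ccl3 and Cx3cl1 are the members that lie higher in Ki-67-KO tumors.

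The Ccr2 ligands fell the most. Ccl2 was at 8.03, 6.28 and 6.50 CPM in Ki-67-KO tumors, against 65.3, 83.5 and 63.8 CPM in wild-type tumors. The lowest wild-type library was several times above the highest Ki-67-KO library. Ccl2 thus fell 10.2-fold (log2 fold change -3.35, SE 0.15, edgeR adjusted p = 3.36e-06). Ccl12, its closest functional partner in the mouse, was at 5.82, 7.54 and 8.09 CPM in Ki-67-KO tumors, against 60.02, 56.1 and 43.2 CPM in wild-type tumors. It fell 7.45-fold (log2 fold change -2.90, SE 0.17, edgeR adjusted p = 1.03e-05). Ccl7, a ligand of Ccr2 that also binds Ccr1 and Ccr3, was at 11.0, 9.16 and 8.05 CPM in Ki-67-KO tumors, against 38.0, 42.3 and 37.6 CPM in wild-type tumors. It fell 4.17-fold (log2 fold change -2.06, SE 0.14, edgeR adjusted p = 1.76e-05). None of these calls was lost in any of the 18 processing alternatives, and the largest adjusted p was 0.000484, for Ccl7.

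Ccl8 went the other way. It was at 58.2, 73.2 and 58.1 CPM in Ki-67-KO tumors, against 31.3, 41.7 and 34.3 CPM in wild-type tumors. Each Ki-67-KO library lay above each wild-type library, and the rise was 1.77-fold (log2 fold change 0.82, SE 0.14, edgeR adjusted p = 0.00249). Its adjusted p stayed at or under 0.0244 in all 18 alternatives.

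Since these genes differ in length, their makeup was compared per length, as CPM per kilobase of annotated exon (RPKM). The length merges all annotated exons of a gene, 1138 bases for Ccl2, 801 for Ccl7, 537 for Ccl12 and 511 for Ccl8. Where the transcript made is shorter than the merged length, its RPKM is too low. Shares and ranks between genes depend on this choice, while the fold change of a gene between the groups does not. The summed level of Ccl2, Ccl7, Ccl8 and Ccl12 was 155 ± 16.9 RPKM in Ki-67-KO tumors and 280 ± 31.0 RPKM in wild-type tumors (SD, n = 3 each). Ccl8 made up 78.3%, 82.2% and 78.7% of that sum in Ki-67-KO tumors, against 22.0%, 26.1% and 26.8% in wild-type tumors. Ccl12 made up 8.64% ± 1.57 of it in Ki-67-KO tumors and 35.3% ± 4.36 in wild-type tumors (SD, n = 3 each). The share of Ccl2 was 3.99% ± 0.84 in Ki-67-KO tumors and 22.2% ± 1.43 in wild-type tumors. In Ki-67-KO tumors most of this RNA was therefore Ccl8, while wild-type tumors held the 4 transcripts in more equal parts. These shares are a description, since they follow from the levels tested above.

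**Figure D2:**
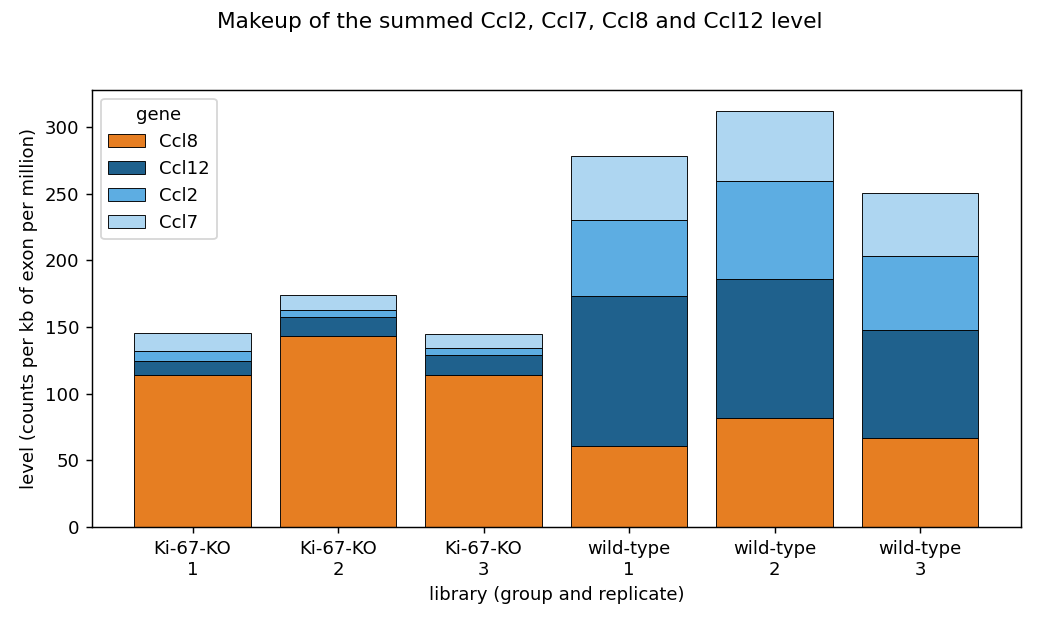
Summed RPKM of Ccl8, Ccl12, Ccl2 and Ccl7 (y axis, CPM per kilobase of exon) in each Ki-67-KO and wild-type library, stacked by gene. The bars are lower in the 3 Ki-67-KO libraries, 145 to 174 against 250 to 312 RPKM in wild-type, while the Ccl8 part is larger in each of them.

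These genes lie side by side on chromosome 11 (GRCm38). Ccl2 (ENSMUSG00000035385, chr11:82035571-82037453), Ccl7 (ENSMUSG00000035373, chr11:82045712-82047525), Ccl12 (ENSMUSG00000035352, chr11:82101845-82103400) and Ccl8 (ENSMUSG00000009185, chr11:82115185-82116799) are all on the plus strand. The start of Ccl8 lies 79.6 kb from that of Ccl2. Between Ccl7 and Ccl12 sits Ccl11, a chemokine that attracts eosinophils, and it rose by 1.05 on the log2 scale (SE 0.34, edgeR adjusted p = 0.0386). Ccl11 was at 6.44, 13.9 and 5.72 CPM in Ki-67-KO tumors, against 4.94, 3.28 and 4.33 CPM in wild-type tumors, with Ki-67-KO replicate 2 far above the rest. Without that library its log2 fold change was 0.50 (edgeR adjusted p = 0.0729), and its call was lost in 7 of the 18 alternatives. Along the locus, the genes that fell and the genes that rose were thus interleaved only through Ccl11. Leaving it aside, Ccl2, Ccl7 and Ccl12 fell and Ccl8, which lies beyond them, rose.

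Ccl12 and Ccl8 are neighbours with opposite changes, so their promoters, 250 bases before to 50 after the gene start, are shown for comparison. They are from RefSeq (GRCm38.p6, plus strand), and 6 of the 10 members have an entry in that table. Capitals mark a TATA box, the letters TATAAA on the gene's strand.
Ccl12 promoter (chr11:82101595-82101894): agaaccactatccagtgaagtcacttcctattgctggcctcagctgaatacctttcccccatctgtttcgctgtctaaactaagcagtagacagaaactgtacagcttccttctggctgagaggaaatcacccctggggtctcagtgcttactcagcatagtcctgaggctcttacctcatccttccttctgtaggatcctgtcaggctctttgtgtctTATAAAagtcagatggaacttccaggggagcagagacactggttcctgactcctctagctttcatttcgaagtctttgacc
Ccl8 promoter (chr11:82114935-82115234): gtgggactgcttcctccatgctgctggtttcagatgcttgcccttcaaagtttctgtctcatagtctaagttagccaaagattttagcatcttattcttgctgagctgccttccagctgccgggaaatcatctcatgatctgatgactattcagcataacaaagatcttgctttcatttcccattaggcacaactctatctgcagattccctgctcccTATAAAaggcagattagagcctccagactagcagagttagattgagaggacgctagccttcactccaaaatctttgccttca
Each of the pair holds the TATA box at a like place, starting 31 bases before the gene start in Ccl12 and 32 in Ccl8. The same letters occur on the gene strand in 8.32% of the 32851 promoters of this length in the table. On both strands 3 further motifs were searched. They were GGG, any 3 bases and TTCC for NF-kappaB (in 5.56% of promoters), TGANTCA for AP-1 (7.81%) and TTCNNNGAA for STAT proteins, a GAS element (8.3%). None of these 3 occurs in the windows of Ccl12 and Ccl8, which says nothing of the factors themselves.

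**Figure D3:**
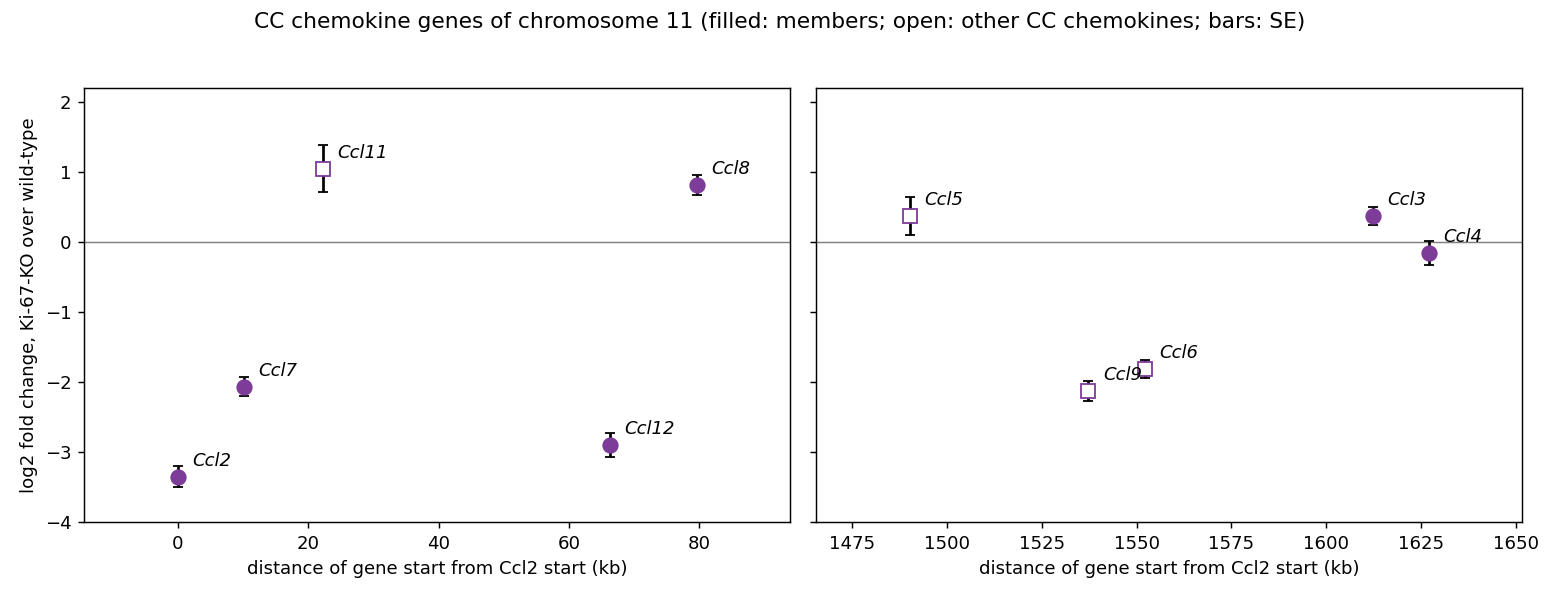
Log2 fold change (Ki-67-KO over wild-type, y axis, bars SE) of the CC chemokine genes tested on chromosome 11 against the distance of the gene start from that of Ccl2 in kb. Filled circles are members and open squares other CC chemokines, and members of opposite sign, such as Ccl12 at -2.90 and Ccl8 at 0.82, lie next to each other.

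A second group of CC chemokine genes lies farther along the same chromosome, and its members here, Ccl3 (chr11:83647844-83649355, minus strand) and Ccl4 (chr11:83662584-83664683, plus strand), moved little. Ccl3 was at 9.24, 9.76 and 9.47 CPM in Ki-67-KO tumors, against 7.87, 6.65 and 7.35 CPM in wild-type tumors. Its groups did not overlap, and the 1.30-fold rise passed narrowly (log2 fold change 0.38, SE 0.13, edgeR adjusted p = 0.0498). The Ccl3 call was lost in 11 of the 18 alternatives, with each wild-type replicate left out among them and an adjusted p of up to 0.397 without the filter on low counts. Ccl4 was at 3.61, 4.58 and 4.86 CPM in Ki-67-KO tumors, against 4.61, 4.90 and 4.92 CPM in wild-type tumors. Here the groups overlapped and the difference did not pass (log2 fold change -0.15, edgeR adjusted p = 0.522). Its 95% interval ran from -0.54 to 0.24. Ccl3 and Ccl4 are also made by neutrophils, and of 9 neutrophil markers 4 rose, none fell and 5 did not pass. Their summed level was 326 to 447 CPM in Ki-67-KO libraries and 235 to 282 CPM in wild-type libraries. S100a8 and S100a9 held most of that sum in every library, and S100a8 did not pass (edgeR adjusted p = 0.0568). Natural killer cells make Ccl3 and Ccl4 too, and of 5 such markers 4 fell, while Klrb1c had too few counts to test. The summed level of the 5 was 0.632 to 1.04 CPM in Ki-67-KO libraries and 25.5 to 34.5 CPM in wild-type libraries. Prf1 held most of the wild-type sum, at 19.8, 24.9 and 26.8 CPM, and averaged 0.10 CPM in Ki-67-KO tumors. Its log2 fold change was -7.83, against a median of -3.22 over the 4 markers tested. The part of either cell type in the Ccl3 value was not tested.

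Cx3cl1 (ENSMUSG00000031778, chr8:94772009-94782427, plus strand) was the other member that rose. It was at 183, 231 and 210 CPM in Ki-67-KO tumors, against 101, 94.9 and 95.1 CPM in wild-type tumors. Every Ki-67-KO library lay above every wild-type library, and the rise was 2.15-fold (log2 fold change 1.10, SE 0.10, edgeR adjusted p = 0.000116). Endothelial cells are a known source of Cx3cl1. Of 8 endothelial markers 1 rose and none fell, and their summed level was 234 to 307 CPM in Ki-67-KO libraries and 238 to 332 CPM in wild-type libraries. Genes of chromosome 8 were shifted as a whole: of 1038 tested, 449 were higher and 56 lower in Ki-67-KO tumors, with a median log2 fold change of 0.44. The part of that shift in the Cx3cl1 value was not tested.

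Both Csf1r ligand genes fell. Csf1 (ENSMUSG00000014599, chr3:107741048-107760469, minus strand) was at 93.0, 122 and 100.3 CPM in Ki-67-KO tumors, against 304, 372 and 332 CPM in wild-type tumors. The groups were far apart, and Csf1 fell 3.20-fold (log2 fold change -1.68, SE 0.13, edgeR adjusted p = 3.49e-05). Il34 (ENSMUSG00000031750, chr8:110741829-110805924, minus strand) was at 20.3, 16.4 and 16.4 CPM in Ki-67-KO tumors, against 29.0, 25.9 and 26.1 CPM in wild-type tumors. It fell 1.52-fold (log2 fold change -0.61, SE 0.12, edgeR adjusted p = 0.00562), with no overlap. Il34 thus went against the median shift of its chromosome. It is best known from keratinocytes and neurons, and all 8 keratinocyte markers rose, with a summed level of 960, 1532 and 737 CPM in Ki-67-KO libraries and 71.7 to 123 CPM in wild-type libraries. Krt14 held most of that sum in Ki-67-KO tumors, at 815, 1009 and 630 CPM, against 32.9, 53.8 and 39.0 CPM in wild-type tumors. Ki-67-KO replicate 2 stood apart in some of the markers. The keratin gene Krt1 was at 34.0, 183 and 19.2 CPM in Ki-67-KO tumors, against 6.16, 17.5 and 11.97 CPM in wild-type tumors. Krt10 overlapped between the groups. Bulk RNA does not show whether keratinocytes or carcinoma cells made these transcripts, and their part in the Il34 value was not tested. Exons of other genes cover 4.95% of the exonic bases of Il34. Per kilobase, Il34 made up 37.1%, 26.7% and 30.6% of the summed Csf1 and Il34 level in Ki-67-KO tumors, against 20.5%, 15.8% and 17.5% in wild-type tumors.

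The promoter of Csf1 (RefSeq, GRCm38.p6, minus strand) is shown because it is the one member window, of the 6 available, that held the NF-kappaB letters. Capitals mark that match, which reads on the opposite strand as GGG, any 3 bases and TTCC, and starts 154 bases before the gene start.
Csf1 promoter (chr3:107760420-107760719): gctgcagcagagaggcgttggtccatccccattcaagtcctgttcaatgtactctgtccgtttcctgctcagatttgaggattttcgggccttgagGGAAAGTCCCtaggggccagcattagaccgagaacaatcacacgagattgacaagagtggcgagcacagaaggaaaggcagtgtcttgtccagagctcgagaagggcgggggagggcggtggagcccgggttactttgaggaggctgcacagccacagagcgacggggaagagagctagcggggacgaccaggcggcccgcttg
The match is a description, not a site of binding. None of the 6 windows holds an AP-1 or GAS match.

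Ccr2 itself (ENSMUSG00000049103, chr9:124101950-124113557, plus strand), the receptor that marks inflammatory monocytes, fell along with its ligands. It was at 22.8, 22.1 and 18.8 CPM in Ki-67-KO tumors, against 86.7, 55.9 and 89.9 CPM in wild-type tumors. Wild-type replicate 2 was the lowest of its group and still above all Ki-67-KO libraries. The fall was 3.64-fold (log2 fold change -1.87, SE 0.18, edgeR adjusted p = 0.00014). Other monocyte markers did not move with it as a group. Of 9, 2 rose and 2 fell, their median log2 fold change was -0.07, and their summed level was 357 to 421 CPM in Ki-67-KO libraries and 610 to 669 CPM in wild-type libraries. The coagulation factor gene F13a1 fell by 1.17 on the log2 scale (edgeR adjusted p = 8.71e-05). It averaged 165 CPM in Ki-67-KO tumors and 372 CPM in wild-type tumors, which is most of the difference in that summed level. Ly6c2, a surface marker of inflammatory monocytes, rose by 3.28 (edgeR adjusted p = 2.05e-05). Ly6c2 has a near-identical neighbour in Ly6c1, so its count is uncertain.

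Ranked by RPKM, the members stood in a different order in the groups. In Ki-67-KO tumors Ccl8 led with 124 ± 17.0 RPKM, followed by Cx3cl1 with 53.0 ± 6.20 and Csf1 with 19.9 ± 2.80 (SD, n = 3 each), and these 3 did not overlap with each other. Ccl12, Ccl3 and Ccl7 came next with 13.3, 12.4 and 11.7 RPKM, and each overlapped with the next, as did Ccl7 with Il34 at 9.04 RPKM. Ccl4 and Ccl2 followed with 6.59 and 6.10 RPKM, again overlapping, and Ccr2 was last with 3.14 RPKM. In wild-type tumors Ccl12 led with 98.9 ± 16.4 RPKM, before Ccl8 with 69.9 ± 10.5, Csf1 with 63.6 ± 6.41 and Ccl2 with 62.3 ± 9.62 (SD, n = 3 each). Each of these 4 overlapped with the next, Ccl12 and Ccl8 only narrowly, with a lowest library of 80.4 and a highest of 81.6 RPKM. Ccl7 with 49.1 RPKM and Cx3cl1 with 24.6 RPKM were set apart from their neighbours. Il34 and Ccr2, with 13.8 and 11.5 RPKM, overlapped, as did Ccr2 and Ccl3 with 9.51 RPKM, and Ccl4 was last with 7.29 RPKM. By merged exon length, Ccl2 was thus the fourth member in wild-type tumors and next to last in Ki-67-KO tumors. Its place among the members depends on that length.

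Among the other receptors of these ligands, 10 in all, 3 rose and 4 fell of the 8 that passed the filter on low counts. Their median log2 fold change was -0.10. Of the receptors tested 87.5% were called, against 36% of all genes tested. Those found on monocytes and macrophages were the ones that fell. Cx3cr1, the Cx3cl1 receptor, was at 14.9, 22.4 and 20.5 CPM in Ki-67-KO tumors, against 98.9, 99.7 and 95.9 CPM in wild-type tumors (log2 fold change -2.35, SE 0.15, edgeR adjusted p = 1.39e-05). Csf1r was at 71.9, 136 and 96.0 CPM in Ki-67-KO tumors, against 250, 235 and 236 CPM in wild-type tumors (log2 fold change -1.24, SE 0.20, edgeR adjusted p = 0.00199). Ki-67-KO replicate 2 was the highest of its group, and exons of Hmgxb3 cover 15.1% of the exonic bases of Csf1r. Ccr1, a receptor of Ccl3 and Ccl7, fell by 1.22 on the log2 scale (SE 0.14).

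The receptors that rose were Sdc1, Ptprz1 and Ackr1, of which 1 still rose with the unmapped share as a covariate. Sdc1, a cell surface proteoglycan of epithelium that can bind Il34, was at 1078, 974 and 911 CPM in Ki-67-KO tumors, against 193, 218 and 200 CPM in wild-type tumors (log2 fold change 2.28, SE 0.11, edgeR adjusted p = 3.42e-06). Ptprz1, a phosphatase that is another receptor of Il34, averaged 1.70 ± 0.51 CPM in Ki-67-KO tumors and 0.81 ± 0.13 CPM in wild-type tumors (SD, n = 3 each; edgeR adjusted p = 0.0287), a call lost in 9 of the 18 alternatives. Ackr1, a receptor that binds chemokines without signalling, rose by 1.89 (SE 0.43), with exons of Cadm3 over 25.7% of its exonic bases. It was highest in Ki-67-KO replicate 2, its log2 fold change was 1.26 without that library, and its call was lost without Ki-67-KO replicates 2 and 3 together and with the unmapped share as a covariate. Ackr2, a chemokine scavenger, averaged 1.13 ± 0.46 CPM in Ki-67-KO tumors and 0.56 ± 0.10 CPM in wild-type tumors (SD, n = 3 each) and did not pass (edgeR adjusted p = 0.0626). Ccr8, the mouse receptor of Ccl8, had 1, 0 and 1 counts in Ki-67-KO libraries and 0, 0 and 5 counts in wild-type libraries, too few to test. Where it was at 0, up to 3 counts remain possible by counting error alone, which is 0.119 CPM in Ki-67-KO replicate 2 and 0.0809 and 0.0783 CPM in wild-type replicates 1 and 2. Ccr3, a receptor on eosinophils, averaged 0.30 CPM in Ki-67-KO tumors and 0.27 CPM in wild-type tumors and was not tested.

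Ligand and receptor transcripts were then set against each other within each library, as ratios of RPKM. The size of a ratio depends on the merged exon lengths, while its difference between the groups does not. Cx3cl1 stood at 14.1, 11.8 and 11.7 times the level of Cx3cr1 in Ki-67-KO tumors, against 1.17, 1.09 and 1.14 times in wild-type tumors, a difference of 3.47 on the log2 scale. The groups were far apart, since the ligand rose while the receptor fell. Ccl2 stood at 2.09, 1.69 and 2.05 times the level of Ccr2 in Ki-67-KO tumors, against 4.48, 8.87 and 4.22 times in wild-type tumors, a difference of -1.51. For Csf1 over Csf1r the ratios were 1.41, 0.975 and 1.14 in Ki-67-KO tumors, against 1.33, 1.73 and 1.53 in wild-type tumors, and the groups overlapped. For Il34 over Csf1r they were 0.833, 0.354 and 0.503 in Ki-67-KO tumors, against 0.343, 0.325 and 0.326 in wild-type tumors, a difference of 0.68, which was 0.35 without Ki-67-KO replicate 1. An exact two-sided permutation test of 3 against 3 libraries cannot go below 0.1. The exact p was 0.1 for the ratios of Cx3cl1, Ccl2 and Il34 and 0.2 for that of Csf1, or 0.133 and 0.2 after Benjamini-Hochberg adjustment over the 4 ratios, so none passed.

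**Figure D4:**
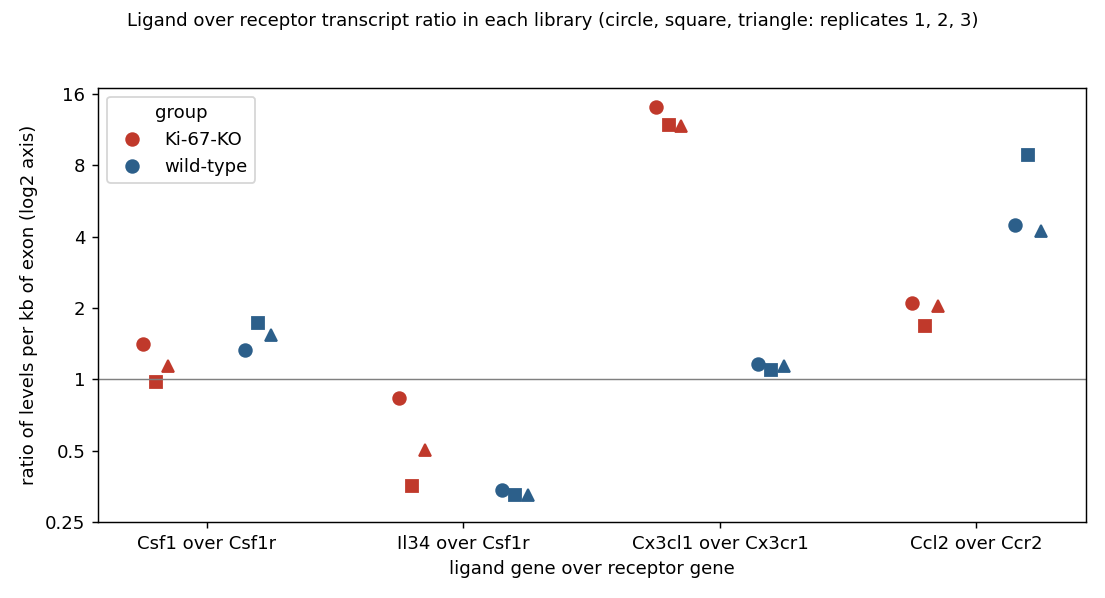
Ratio of ligand to receptor level (RPKM, log2 axis) in each library, Ki-67-KO in red and wild-type in blue, with a marker per replicate. Cx3cl1 over Cx3cr1 lies at 11.7 to 14.1 in Ki-67-KO and 1.09 to 1.17 in wild-type libraries, while Csf1 over Csf1r overlaps between the groups.

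Of the 12 remaining CC chemokine genes, 8 passed the filter, 1 rose (Ccl11, above) and 2 fell, with a median log2 fold change of 0.06. The share called was 37.5% of those tested, near the 36% of all genes tested. Ccl6 and Ccl9, chemokines made by myeloid cells of the mouse, were the ones that fell. Ccl6 was at 96.4, 114 and 97.9 CPM in Ki-67-KO tumors, against 400, 298 and 382 CPM in wild-type tumors (log2 fold change -1.81, SE 0.13, edgeR adjusted p = 2.94e-05). Ccl9 was at 36.8, 53.2 and 38.9 CPM in Ki-67-KO tumors, against 184, 178 and 198 CPM in wild-type tumors (log2 fold change -2.12, SE 0.14). These genes lie between Ccl5 and Ccl3, and Ccl5, a chemokine made by lymphocytes, averaged 2.97 CPM in Ki-67-KO tumors and 2.27 CPM in wild-type tumors, where the groups overlapped. Ccl17, a chemokine for T cells, had a log2 fold change of 0.64 and did not pass (edgeR adjusted p = 0.095).

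Of 7 proteases that shed or trim these ligands, 3 rose (Mmp2, Mmp12 and Mmp14, matrix proteases) and 3 fell, with a median log2 fold change of 0.44. The share called was 85.7%, against 36% of all genes tested. The number that rose was 0 without wild-type replicate 1 or without wild-type replicate 2. It was 1 without wild-type replicate 3, without Ki-67-KO replicate 3, without Ki-67-KO replicates 2 and 3 together, and with the unmapped share as a covariate. Adam10 and Adam17, the membrane proteases that release Cx3cl1 and Csf1 from the cell surface, were among those that fell. Adam10 was at 201, 170 and 202 CPM in Ki-67-KO tumors, against 355, 344 and 385 CPM in wild-type tumors (log2 fold change -0.92, SE 0.10, edgeR adjusted p = 0.000265). Adam17 fell by 0.63 (SE 0.08, edgeR adjusted p = 0.00071). Ctss, a macrophage cathepsin that can cleave Cx3cl1, fell by 1.49 (SE 0.12). The matrix protease Mmp2, which cleaves Ccl7, was at 99.0, 221 and 143 CPM in Ki-67-KO tumors, against 72.5, 81.9 and 85.5 CPM in wild-type tumors (log2 fold change 0.95, SE 0.25, edgeR adjusted p = 0.0175). The rise of Mmp2 was 0.55 without Ki-67-KO replicate 2 and its call was lost in 5 of the 18 alternatives, with each wild-type replicate left out among them. Mmp2 also lies on chromosome 8, where the median log2 fold change was 0.44, and the part of that shift in its value was not tested. Of 8 fibroblast markers, 7 were higher and 1 was lower. Their summed level was also highest in Ki-67-KO replicate 2. It was 5347, 10484 and 6951 CPM in Ki-67-KO libraries, against 3168 to 4028 CPM in wild-type libraries.

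Of 12 genes known to induce or control Ccl2 transcription, 11 were tested. There 5 rose and 2 fell, with a median log2 fold change of 0.27. The share called was 63.6%, against 36% of all genes tested. Il1a, an interleukin-1 ligand, rose by 4.08 on the log2 scale (SE 0.15, edgeR adjusted p = 8.08e-07), with exons of a non-coding gene over 11.2% of its exonic bases. Il1b, the other interleukin-1 ligand, was at 171, 142 and 164 CPM in Ki-67-KO tumors, against 84.6, 103 and 67.6 CPM in wild-type tumors (log2 fold change 0.90, SE 0.15). Tnfaip3, a feedback inhibitor of NF-kappaB, was at 78.0, 105 and 92.3 CPM in Ki-67-KO tumors, against 42.4, 45.0 and 42.2 CPM in wild-type tumors (log2 fold change 1.08, SE 0.12). Tlr4, the receptor of bacterial endotoxin, fell by 1.48 (SE 0.16). The number that rose was 3 rather than 5 without wild-type replicate 1, without wild-type replicate 2, without the filter on low counts, and without the pair of Ki-67-KO libraries with most unmapped pairs. The number that fell was 1 rather than 2 without Ki-67-KO replicate 3, without wild-type replicate 1, without wild-type replicate 3, in the first stranded column, and with the share of pairs outside exons as a covariate.

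Of 11 genes of Csf1r signalling and myeloid transcription, 8 fell and none rose, with a median log2 fold change of -0.87. The share called was 72.7%, against 36% of all genes tested. Tyrobp, an adaptor of myeloid receptors, was at 66.3, 60.1 and 68.4 CPM in Ki-67-KO tumors, against 163, 139 and 141 CPM in wild-type tumors (log2 fold change -1.19, SE 0.10, edgeR adjusted p = 5.79e-05). Irf8, a transcription factor of monocyte development, fell by 1.00 (SE 0.12). Maf, a transcription factor of mature macrophages, fell by 1.42 (SE 0.14). Tfec, a factor found in macrophages, fell by 1.60 (SE 0.16).

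The genes whose profile was closest to that of Ccl2 were sought among 13498 genes with a mean of at least 2 CPM, by the Euclidean distance between log2 CPM values centred on each gene's own mean over the 6 libraries. The nearest 5 were Kirrel3, Nptx1, Syt13, Fam131b and Lyz2, at distances of 0.276, 0.407, 0.487, 0.502 and 0.531. Nptx1 was at 20.8, 18.6 and 18.9 CPM in Ki-67-KO tumors, against 235, 289 and 215 CPM in wild-type tumors. Lyz2, lysozyme of macrophages and neutrophils, was at 331, 300 and 321 CPM in Ki-67-KO tumors, against 3937, 3193 and 3353 CPM in wild-type tumors. Of the other members, Ccl12 was closest, at a distance of 0.911 and rank 16, followed by Ccl7 at 1.58 and rank 96 and by Ccr2 at 2.05 and rank 185. With 3 libraries on each side, this likeness mostly follows the size of the difference between the groups.

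Across the 18 processing alternatives, the members other than Ccl3 kept their direction and their side of the threshold. The log2 fold change of Ccl2 ranged from -3.48 to -3.17, that of Ccl12 from -3.25 to -2.73 and that of Csf1 from -1.92 to -1.58. Cx3cl1 ranged from 0.85 to 1.18 and Ccl8 from 0.64 to 0.93. Il34 had the smallest fall that passed, from -0.73 to -0.45, with an adjusted p of up to 0.0358 in edgeR.

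**Figure D5:**
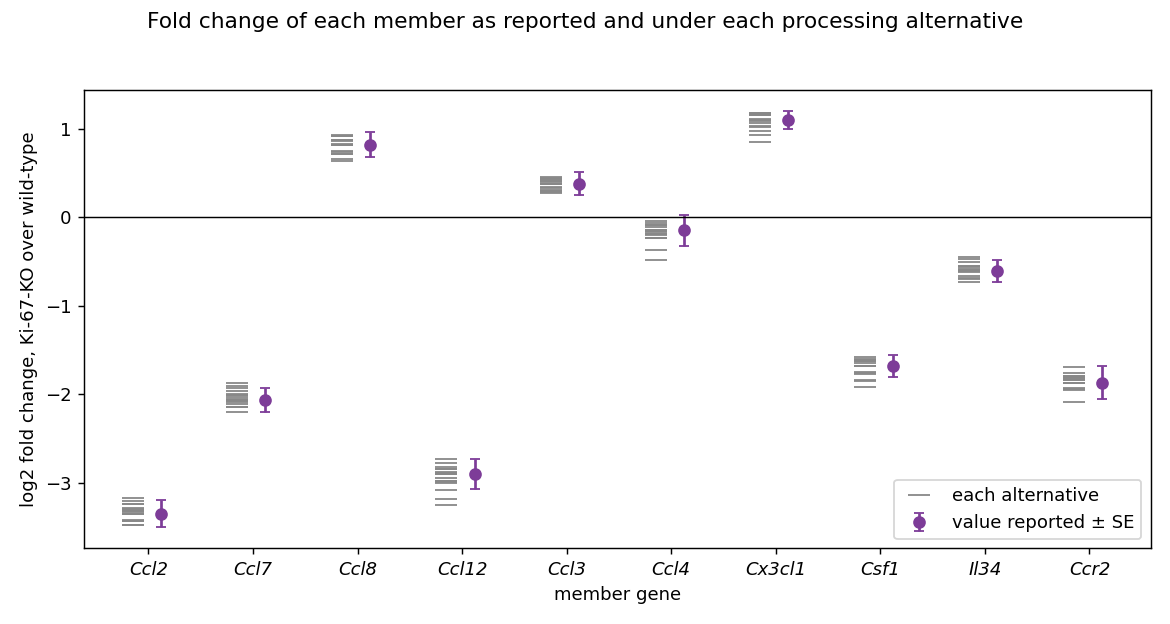
Log2 fold change (Ki-67-KO over wild-type, y axis) of each member as reported, with its SE, and under each of the 18 alternatives (grey dashes). No member changes sign, and the values of Ccl2 stay between -3.48 and -3.17.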

How the data were processed

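RNA of 6 tumors, 3 Ki-67-KO and 3 wild-type, was sequenced as read pairs, per the labels. The deposited tables give raw counts per gene with no normalization. The submitters' processing notes list STAR 2.6.0c, FastQC, DESeq2 and GRCm38. The tables have the layout of STAR gene counts, in which pairs that map to several places are left out. The first 4 rows name no gene and were left out of totals and tests. They hold unmapped pairs (30.8% to 54.6% of all pairs), multimapping pairs (3.12% to 4.395%), and pairs outside exons (9.24% to 18.9% of unique pairs) or ambiguous (4.98% to 6.23%). The first stranded column held 50.0% to 50.2% of stranded counts, so the unstranded column was used, and antisense reads cannot be told apart. Symbols, coordinates and exon lengths came from GENCODE M21 (GRCm38), which matched 54079 of 54146 gene IDs.

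The main test was edgeR's quasi-likelihood test (version 4.0.16, R 4.3.3, low counts removed by filterByExpr, TMM scaling), with adjustment over 19900 genes. RPKM used merged exon lengths. Ratios were tested with scipy 1.17.1. The test was also run on simulated data (19386 genes), with 200 genes changed, equally up and down. There 60 of 99 changes of 2-fold (60.6%) and 82 of 95 of 4-fold (86.3%) were recovered, with 9 false among 151 calls. In the tumors 36% of the genes tested passed, far more than were changed in the simulation, so these rates need not hold for them.

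The members, lists and rules were chosen with earlier results of these data known. Named are all members, the receptors except 1 that is not reported here, up to 4 genes of smallest p in each other pathway list, and the 5 genes closest to Ccl2. F13a1, Ly6c2, Ccl5, Krt1, Krt8, Krt10, Krt14, Mmp12, Mmp14, Prf1, Klrb1c, S100a8 and S100a9 fall outside that rule. They were chosen after their values were seen. The alternatives were DESeq2 1.42.0, other scalings (RLE, library totals), filters, stranded columns, a robust fit, each replicate left out, a replicate block, only libraries with under 40% unmapped pairs, and a covariate for the unmapped share or for the share of pairs outside exons. Replicates of a group differed by more than sampling noise, and Ki-67-KO replicates more so than wild-type ones. The chi-square of their counts per degree of freedom was 23.9 to 71.3 between Ki-67-KO replicates and 8.21 to 10.9 between wild-type replicates.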

Additional observations from a re-analysis of the deposited data

How the results depend on the processing

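Of the 10 members, 6 fell in every one of the 18 alternatives, and 3 rose or, where the call of Ccl3 was lost, 2. All genes past the threshold numbered 3506 higher and 3652 lower. With each replicate left out in turn, the numbers ranged from 1821 to 4648 higher and from 2257 to 4778 lower. They were 1821, 1981 and 1855 higher without wild-type replicates 1, 2 and 3, and 2257 and 2434 lower without wild-type replicates 1 and 2. With the unmapped share as a covariate 2333 were higher, and with pairs outside exons as the covariate 2237 were lower. Of the 52 genes in the 5 pathway lists, 12 rose and 19 fell. The number that rose was 5 to 16 with a replicate left out (5, 5 and 7 without wild-type replicates 1, 2 and 3), 6 with only libraries under 40% unmapped pairs and 6 with the unmapped share as a covariate. With only those libraries, the lone Ki-67-KO library is assumed to vary like the wild-type group. The cause of these shifts was not tested.

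The replicate numbers are not said to pair the tumors. Deviations of same-numbered libraries from their group means correlated at 0.05, -0.21 and -0.24. With the replicate number as a block, 3082 genes were higher and 3580 lower, Ccl3 was lost (adjusted p = 0.0974 in edgeR), and the other members kept their calls. Library depth limits the low receptors, of which Ccr3 and Ccr8 were not tested.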
